A study of Rattus norvegicus with 5 samples.

Results

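The 7 genes described here belong to the response of a tissue to glucocorticoids and insulin: *Sgk1*, *Fkbp5*, *Tsc22d3*, *Nr3c1*, *Hsd11b2*, *Irs2* and *Pik3r1*. They were chosen by gene symbol, with the ratios of the calorie restriction (CR) arrays to the control array already known, so their ratios are given as a description and without a test. The 7 genes are read by 8 of the 15866 gene probes of the array without its controls, of 10411 genes that have a gene probe with a single symbol. Small intestine was taken from male Wistar rats that entered the experiment at 6 weeks of age and were fed for 1 month, in a control group that received the full recorded intake and in groups that received 5, 10, 20 or 30% less of the same purified diet. All groups, the control included, were dissected after a 16 h fast. RNA of 5 rats was pooled for each group and hybridized to 1 Affymetrix rat 230A array per pool, so no level has a replicate, differences between single rats cannot be seen, and any spread given below is among the 4 CR pools.

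Corticosterone, the main glucocorticoid of the rat, enters cells and binds the glucocorticoid receptor, which then moves to the nucleus and acts on genes that carry glucocorticoid response elements. The enzyme 11-beta-hydroxysteroid dehydrogenase type 2 inactivates corticosterone before it reaches a receptor, and the chaperone partner FKBP5 lowers the affinity of the receptor for the hormone, so both act as brakes. Insulin signals through insulin receptor substrates to phosphatidylinositol 3-kinase and AKT, which keep FoxO transcription factors out of the nucleus. The kinase SGK1 stands in both pathways, since its gene is induced by glucocorticoids and the protein is activated downstream of phosphatidylinositol 3-kinase. In the intestine it is known for raising sodium and glucose uptake by enterocytes.

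The array probes report transcript levels and not promoter activity, but the start regions of these genes show what hormone-linked motifs lie next to them. RefSeq start regions of 300 bases (250 before and 50 after the start) on the GRCr8 build were matched by symbol to 5 of the 7 genes, with 10 start regions: 3 each of *Sgk1* and *Tsc22d3*, 2 of *Nr3c1*, and 1 each of *Fkbp5* and *Pik3r1*. *Hsd11b2* and *Irs2* had no entry. Both strands were searched for the glucocorticoid response element core ACANNNTGT, the hexamer AGAACA, a single arm of that element (which can overlap the core), the FoxO site GTAAACA and the GC box GGGCGG. The most downstream start region of *Sgk1*, the gene with the largest mean ratio, and both start regions of *Tsc22d3* that held a hormone-linked motif are printed, 5′ to 3′ on the minus strand, with the motif matches in capitals.

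Sgk1 chr1:24804782-24805081: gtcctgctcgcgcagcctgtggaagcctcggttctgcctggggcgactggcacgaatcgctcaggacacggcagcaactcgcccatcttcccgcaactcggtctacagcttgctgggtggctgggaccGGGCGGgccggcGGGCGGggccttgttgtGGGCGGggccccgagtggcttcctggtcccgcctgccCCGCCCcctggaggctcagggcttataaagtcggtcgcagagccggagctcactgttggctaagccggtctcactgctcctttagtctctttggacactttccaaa

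Tsc22d3 chrX:109065381-109065680: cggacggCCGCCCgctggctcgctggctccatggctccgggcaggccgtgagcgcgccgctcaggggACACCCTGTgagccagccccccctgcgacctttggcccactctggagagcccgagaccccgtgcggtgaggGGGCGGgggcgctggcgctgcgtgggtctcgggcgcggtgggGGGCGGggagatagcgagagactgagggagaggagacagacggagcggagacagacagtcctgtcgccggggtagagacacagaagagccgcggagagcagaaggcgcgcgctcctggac

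Tsc22d3 chrX:109009985-109010284: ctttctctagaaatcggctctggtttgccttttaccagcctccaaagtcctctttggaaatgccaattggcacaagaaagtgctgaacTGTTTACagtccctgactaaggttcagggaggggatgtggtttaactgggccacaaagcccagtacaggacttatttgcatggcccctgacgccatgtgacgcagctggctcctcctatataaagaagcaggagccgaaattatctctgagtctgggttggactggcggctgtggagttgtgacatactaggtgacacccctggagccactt

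The *Sgk1* region held 4 GC boxes, beginning 122, 110, 93 and 56 bases before the start, and none of the other motifs. The first *Tsc22d3* region held the response element core as ACACCCTGT, which begins 183 bases before the start, together with 3 GC boxes. The other held TGTTTAC, the FoxO site read on the opposite strand, 162 bases before the start. Over all 10 start regions the core was found in 1, the hexamer in 0, the FoxO site in 1 and the GC box in 8. Among 33469 rat start regions of the same length, 6.86% held the core, 20.68% the hexamer, 3.78% the FoxO site and 33.06% the GC box. The GC content of the regions printed was 66.0, 73.0 and 50.7%, against a median of 51.7% over all of them. A match describes these letters only, and the array gives no value for any of these motifs.

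The signals are MAS5 intensities on a linear scale, scaled so that the mean without the lowest and highest 2% was equal on all 5 arrays. Because signals of different gene probes are not comparable, the ratios compare each gene only with itself. Sums of marker signals, given below, weigh the brightest gene probes most and are compared only between arrays. Median signals lay between 44.9 and 49.0, and log2 signals correlated between arrays at 0.971 to 0.988. The 7933 gene probes whose mean log2 signal reached 5.54 (a signal of 46.5) were kept, and 6 of the 8 gene probes of these genes were among them, 1 for each gene except *Pik3r1*. The second gene probe of *Nr3c1* and that of *Pik3r1* lay below this level. In whole tissue, fewer cells of a type and less RNA per cell cannot be told apart.

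*Sgk1* had the largest mean ratio of the 7 genes and was at least 2.08-fold the control signal at each CR level, and the receptor gene *Nr3c1* and the insulin receptor substrate *Irs2* were also above the control array at every level, by less. *Hsd11b2* was 2.08-fold and 2.16-fold the control signal at 5 and 10% CR and at the control signal at 20% CR. *Fkbp5* and *Tsc22d3*, which respond to glucocorticoids in many tissues, did not share this pattern, and *Fkbp5* was lowest at 5% CR.

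*Nr3c1*, the glucocorticoid receptor itself, had signals of 80.9 on the control array and 131.3, 101.1, 100.2 and 151.3 with 5, 10, 20 and 30% CR on its brighter gene probe (1368221_at). All 4 CR signals were above the control signal, with the highest at both ends of the range of restriction. The log2 ratios to the control array were 0.70, 0.32, 0.31 and 0.90, with a mean of 0.56 ± 0.29 (SD over the 4 CR pools), or 1.47-fold. The ratio at 30% CR was outside the middle 95% of the 3966 dimmer of the kept gene probes (−0.71 to 0.82), to which it belongs, and the other ratios were inside. Steps between the CR levels were all within the middle 95% of the same steps over these gene probes. The second gene probe (1368222_at) had signals of 12.1, 18.1, 1.8, 13.8 and 1.1 in the same order, up to 16.5-fold apart and without an order by level. Its mean log2 ratio was −1.36 ± 2.04, so the direction for the gene rests on the brighter gene probe alone, and the mean over both was −0.40.

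*Hsd11b2* (1368102_at), which encodes the corticosterone-inactivating enzyme, had signals of 41.1 on the control array and 85.3, 88.8, 41.0 and 59.1 with 5, 10, 20 and 30% CR. The pools at 5 and 10% CR were higher than the control by log2 ratios of 1.05 and 1.11, the pool at 30% CR by 0.52, and that at 20% CR was equal to it (−0.004). The mean over the CR pools was 0.67 ± 0.52, and 0.90 without the 20% CR pool. The signal at 20% CR was below those at 5 and 10% CR by log2 differences of −1.06 and −1.11, both outside the middle 95% of these steps over the 3966 dimmer gene probes. The signals of the control and 20% CR arrays lay under 46.5, so this gene probe was kept through the other arrays and its ratios rest on weak signals.

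Among the target genes, *Sgk1* (1367802_at) had signals of 137.7 on the control array and 287.1, 285.9, 521.8 and 307.4 with 5, 10, 20 and 30% CR. Every CR signal was at least 2.08-fold the control signal, and the signal at 20% CR was 3.79-fold. The log2 ratios were 1.06, 1.05, 1.92 and 1.16, with a mean of 1.30 ± 0.42, which ranked 13 of the 7933 kept gene probes from the highest. At 20% CR only 0.04% of the kept gene probes had a higher ratio. The pools at 5, 10 and 30% CR differed from each other by log2 differences of at most 0.11, inside the middle 95% of these steps over the 3967 brighter of the kept gene probes, whereas the 20% CR pool was above those at 5 and 10% CR by 0.86 and 0.87, outside that range. The signal therefore did not follow the order of restriction, and without the 20% CR pool the mean ratio was 1.09.

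The array at 20% CR also stood apart in other values. Of 12 enterocyte marker genes on the array all 12 were kept, in accord with the labelled tissue, and all 12 were highest on this array. Their summed signal was 14644 on the control array and 17048, 15986, 22776 and 16415 with 5, 10, 20 and 30% CR, with median log2 ratios of 0.14, −0.04, 0.54 and 0.09. Of that sum *Fabp1* alone gave 4064.7 on the control array and 6468.2 with 20% CR. The mean ratio over the CR pools was above 0 for 8 of the markers and below 0 for 4. Only *Fabp2*, the intestinal fatty acid-binding protein, was at least 0.5 log2 above the control array at all levels, with a mean ratio of 1.03. Beta-actin is read at both ends of its transcript as a check of RNA quality, and the ratio of its 3′ to its 5′ signal was 2.30 for the control pool and 2.20, 2.41, 3.18 and 2.32 for the pools at 5, 10, 20 and 30% CR. The same ratio for *Gapdh*, a glycolytic enzyme, did not set the 20% CR array apart, at 1.40 for the control pool and 1.32, 1.37, 1.27 and 1.21 for the CR pools in that order. The marker sum and the beta-actin ratio were highest on the array where *Sgk1* and *Irs2* were highest and *Hsd11b2* was lowest, and their part in these signals was not tested. *Sgk1* was 2.08-fold, 2.08-fold and 2.23-fold the control signal on the arrays at 5, 10 and 30% CR. On these arrays the beta-actin ratio was 2.20, 2.41 and 2.32, against 2.30 for the control pool. The marker sum there was 17048, 15986 and 16415, against 14644. Neither was tested as a part of the *Sgk1* signal.

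*Fkbp5* (1388901_at), whose product holds the receptor in a form of low affinity and whose gene the receptor induces, had signals of 210.5 on the control array and 93.9, 183.0, 189.1 and 257.8 with 5, 10, 20 and 30% CR. The 5% CR pool had less than any other, at 0.446-fold the control signal, and only 0.09% of the kept gene probes had a lower ratio at that level. The log2 ratios were −1.16, −0.20, −0.15 and 0.29, so the pools at 10, 20 and 30% CR surrounded the control value. The mean was −0.31 ± 0.61, and it was −0.02 without the 5% CR pool. Signals followed the order of restriction among the CR pools, and the 30% CR pool was above the 5% CR pool by 1.46 (log2), outside the middle 95% of that step over the 3967 brighter gene probes. The steps among the pools at 10, 20 and 30% CR were each inside the middle 95% of the same step.

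*Tsc22d3* (1367771_at) encodes GILZ, a leucine zipper protein that carries part of the anti-inflammatory action of glucocorticoids. Its signals were 219.1 on the control array and 201.8, 266.5, 218.4 and 332.6 with 5, 10, 20 and 30% CR. The 30% CR array was the highest, at 1.52-fold the control signal. The log2 ratios were −0.12, 0.28, −0.005 and 0.60, each inside the middle 95% of the 3967 brighter gene probes at its level (−0.57 to 0.61 at 30% CR). The step between the 30% and the 5% CR pools was 0.72, outside the middle 95% of that step (−0.36 to 0.34), and its other steps were inside. The mean was 0.19 ± 0.32, and 0.05 without the 30% CR pool. *Fkbp5* and *Tsc22d3* both had their lowest signal at 5% CR and their highest at 30% CR, where *Sgk1* was 2.08-fold and 2.23-fold the control signal.

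**Figure D1:**
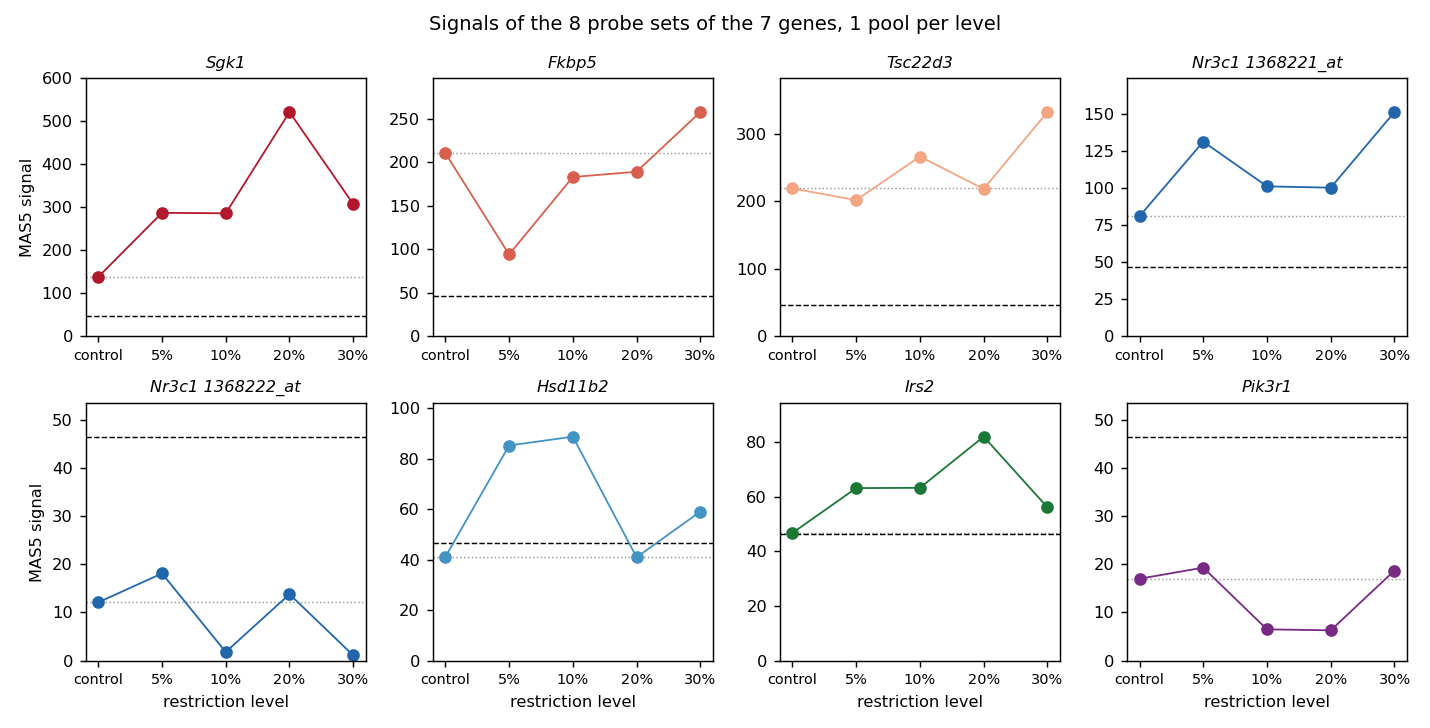
MAS5 signal of the 8 gene probes of the 7 genes on each array. The percent restriction is on the horizontal axis, with 1 pool of 5 rats per point. *Sgk1* was above its control signal at each level and highest at 20% CR (521.8), *Fkbp5* was lowest at 5% CR (93.9), and the second gene probe of *Nr3c1* and that of *Pik3r1* lay below the signal of 46.5 used as a filter.

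In the insulin pathway, *Irs2* (1371091_at), the substrate that couples the insulin receptor to phosphatidylinositol 3-kinase and that FoxO factors induce during fasting, had signals of 46.7 on the control array and 63.1, 63.2, 81.9 and 56.1 with 5, 10, 20 and 30% CR. All CR signals were above the control signal, which lay at the filter level. The log2 ratios were 0.43, 0.44, 0.81 and 0.26, with a mean of 0.49 ± 0.23, or 1.40-fold. The ratio at 20% CR was outside the middle 95% of the 3966 dimmer gene probes (−0.78 to 0.65), and those at the other levels were inside. Like *Sgk1*, *Irs2* was highest at 20% CR, but no step between its CR levels was outside the range of these gene probes.

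*Pik3r1* (1370114_a_at), the gene of the regulatory subunit that holds and stabilizes the catalytic subunit of phosphatidylinositol 3-kinase, had signals of 17.0 on the control array and 19.3, 6.5, 6.3 and 18.7 with 5, 10, 20 and 30% CR. These signals are under the filter level on all arrays. The pools at 10 and 20% CR were the lowest, with log2 ratios of −1.39 and −1.43, while those at 5 and 30% CR were near the control (0.18 and 0.14). After 13.0 was added to every signal, the mean ratio of −0.62 became −0.27, so its size depends on how weak signals are treated.

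**Figure D2:**
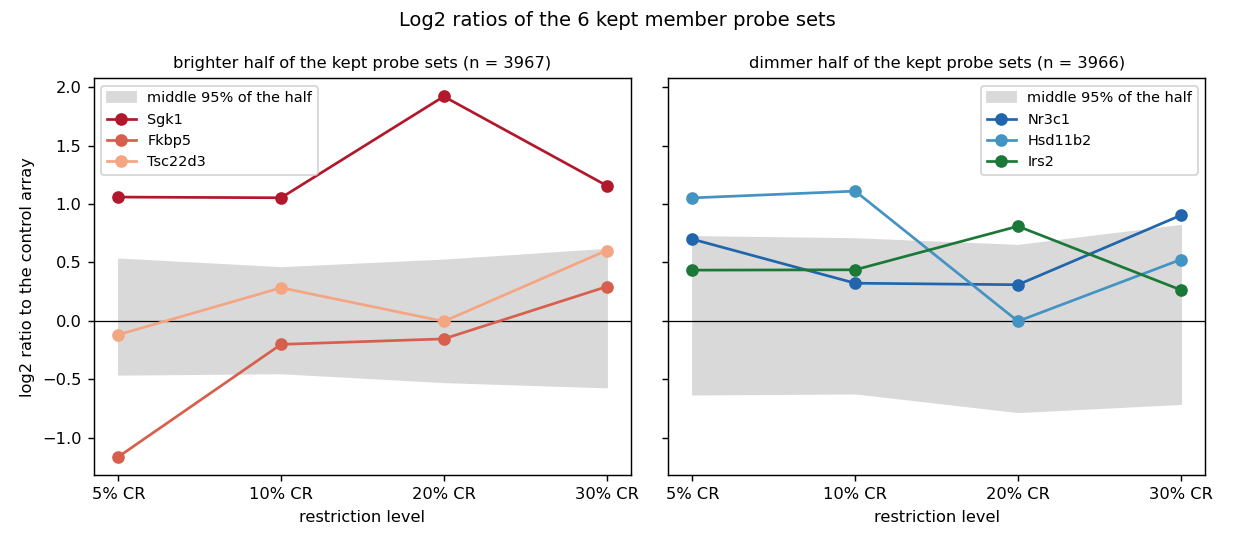
Log2 ratio to the control array at 5, 10, 20 and 30% CR for the 6 kept gene probes, brighter ones (*Sgk1*, *Fkbp5*, *Tsc22d3*) and dimmer ones (*Nr3c1*, *Hsd11b2*, *Irs2*) in separate panels, each point 1 pool. The grey bands hold the middle 95% of the 3967 brighter or 3966 dimmer kept gene probes, and *Sgk1* lay above its band at all 4 levels.

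As a group the genes were read against all kept gene probes. In the comparison of the 4 CR pools with the control pool by limma, 0 of 7933 gene probes (0%) passed an adjusted p of 0.05, with 215 higher and 163 lower at an unadjusted p under 0.05, and 0 of the 6 kept gene probes of these genes were among the calls. The trend over the percent restriction likewise called 0 (0%), with 123 and 122 at an unadjusted p under 0.05. By size, 1 of the 6 (*Sgk1*) was at least 0.5 log2 above the control array at all 4 levels, which 0.769% of all kept gene probes were, and 0 were lower by as much, against 0.340%. A log2 ratio of at least 1 in either direction at 1 or more levels was reached by 3 (*Sgk1*, *Hsd11b2* and *Fkbp5*), against 2.45% of all kept gene probes. At all 4 levels 3 were above the control array by any amount (*Sgk1*, *Nr3c1* and *Irs2*), against 19.0%. The mean ratio was positive for 5 and negative for 1, with a median of 0.52, against −0.006 over all kept gene probes. These counts use the ratios with which the genes were chosen, so nothing is read from the difference.

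The other genes of these pathways lay on both sides of the control array. From 5 lists with 153 genes, 125 were on the array and 85 were measured above the filter level, of which 42 had a mean ratio above 0 and 43 one below it, with a median of −0.002. limma called 0 of the 85 in either comparison, with 5 higher and 3 lower at an unadjusted p under 0.05 in the comparison with the control, and 6 in the trend. Only *Pck1* was at least 0.5 log2 from the control array in one direction at all levels. All other mean ratios but 3 (*Angptl4*, *Ndrg3* and *Slc9a3*) lay within the middle 95% of all kept gene probes (−0.47 to 0.53).

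In the list of glucocorticoid response genes, 20 of 28 on the array were measured, 11 with a positive and 9 with a negative mean ratio, and the median was 0.05. *Angptl4*, an inhibitor of lipoprotein lipase, had signals of 74.2 on the control array and 100.7, 77.6, 116.8 and 148.1 with 5, 10, 20 and 30% CR, with a mean log2 ratio of 0.54 ± 0.39. *Mt2A*, a metal-binding metallothionein, averaged 0.50 ± 0.22 and *Nampt*, an enzyme of NAD synthesis, 0.45 ± 0.28, both above the control array at all levels. *Cebpb*, a transcription factor, was below it at all levels, with a mean of −0.47 ± 0.20. These 4 genes had limma adjusted p-values of 0.974 to 0.988, so no direction was called for the glucocorticoid targets.

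The list of receptor partners and steroid-converting enzymes had 15 measured genes of 22 on the array, 6 with a positive and 9 with a negative mean ratio, and a median of −0.08. *Stip1*, the adaptor that passes clients from HSP70 to HSP90, averaged −0.44 ± 0.29, and *Crebbp*, a coactivator, −0.42 ± 0.25. *Akr1c14*, a 3-alpha-hydroxysteroid dehydrogenase, averaged 0.50 ± 0.17. *Nr3c2*, the mineralocorticoid receptor that HSD11B2 shields from corticosterone, had log2 ratios of 0.02, 0.40, 0.65 and 0.25. Its signals were weak, from 53.4 on the control array to 83.7 at 20% CR, the array that also stood apart in enterocyte markers.

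Among the genes of SGK1 substrates and sodium uptake, 14 of 19 were measured, 7 in each direction, with a median of 0.002. *Slc5a1*, the sodium-coupled glucose transporter, averaged 0.51 ± 0.40, while *Slc9a3*, the sodium-proton exchanger of the brush border, was below the control array at all levels and averaged −0.49 ± 0.23. *Ndrg3* and *Ndrg2*, of a family phosphorylated by SGK1, averaged 0.53 ± 0.23 and 0.41 ± 0.18. *Ndrg1* of the same family, with signals of 604.7 to 801.2, averaged −0.01 ± 0.18, so the transcripts of the family did not rise as a whole. The genes of the epithelial sodium channel subunits (*Scnn1a*, *Scnn1b* and *Scnn1g*) were under the filter level. The list thus held transcripts on both sides while that of *Sgk1* itself was higher at every level. The array gives no value for the phosphorylation of these proteins, so the activity of SGK1 is not read from the list.

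Of the insulin signalling genes 20 of 34 on the array were measured, 7 with a positive and 13 with a negative mean ratio, and the median was −0.06. The largest mean ratios were those of *Rps6kb1*, the ribosomal S6 kinase (−0.27 ± 0.22), *Tsc2*, an inhibitor of mTOR signalling (−0.24 ± 0.35), *Pik3ca*, the catalytic partner of *Pik3r1* (0.23 ± 0.24), and *Akt2* (−0.20 ± 0.26). For *Tsc2*, *Pik3ca* and *Akt2* the ratios over the 4 levels had both signs. The insulin receptor gene *Insr* and *Irs1*, the other main substrate, were under the filter level.

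The FoxO target list had 19 measured genes of 26, with 12 positive and 7 negative mean ratios and a median of 0.09. *Pck1*, the rate-limiting enzyme of gluconeogenesis, had signals of 27.1 on the control array and 75.8, 70.4, 76.0 and 64.9 with 5, 10, 20 and 30% CR. Its log2 ratios of 1.48, 1.38, 1.49 and 1.26 were more even over the levels than those of *Sgk1*, with a control signal below the filter level, and its limma adjusted p was 0.223. *Cpt1a*, which moves fatty acids into mitochondria, averaged 0.39 ± 0.07. *Klf15*, a fasting-induced transcription factor, and *Foxo1* itself averaged −0.31 ± 0.38 and −0.25 ± 0.17.

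**Figure D3:**
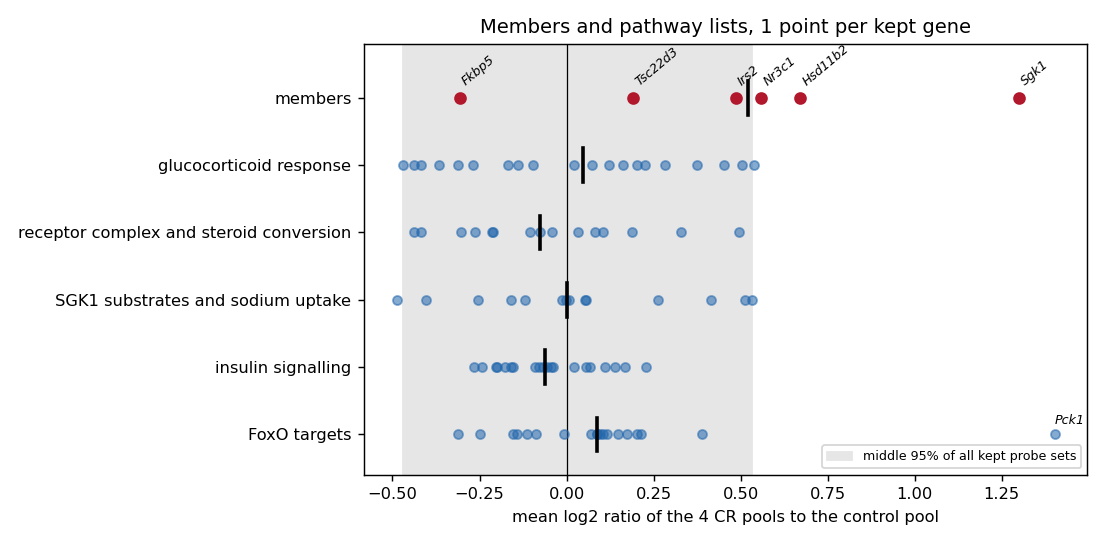
Mean over the 4 CR pools of the log2 ratio to the control pool, 1 point per gene, for the 6 kept genes and for the 5 pathway lists, with vertical bars at the medians and the middle 95% of all kept gene probes in grey. The medians of the lists lay between −0.08 and 0.09, and *Pck1* and *Sgk1* lay farthest to the right.

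For the genes with a mean ratio of at least 0.5, the nearest profiles were taken as the other genes with the smallest root mean square difference of the 4 log2 ratios, over 4 levels that share the control array. Nearest to *Sgk1* were *Usp2*, a ubiquitin-specific protease (0.21), *Eif4ebp3*, a repressor of cap-dependent translation (0.28), and *Ace*, angiotensin-converting enzyme (0.29). *Usp2* had log2 ratios of 0.87, 1.09, 1.65 and 0.90 and *Ace* 0.97, 1.61, 2.06 and 1.10. Their peak at 20% CR follows from the choice by nearness to *Sgk1*. The control signal of *Usp2* was 29.1, under the filter level, so this gene probe was kept through the CR arrays. Within 0.3 of *Sgk1* there were 4 of 6893 gene probes of other genes, against 13 for *Hsd11b2* and 302 for *Nr3c1*. The measure says nothing of shared control.

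The 3 nearest to *Nr3c1* were *Fbxo22* (0.084), *Med7* (0.085) and *Slc38a10* (0.097), and the 3 nearest to *Hsd11b2* were *Pira2* (0.23), *Mmrn1* (0.23) and *Ets1* (0.23). The control signals of *Med7* (39), *Pira2* (37.5) and *Mmrn1* (43.6) were also under the filter level. The profile of *Nr3c1*, with 302 gene probes within 0.3, had the most neighbours of the 3 genes. It also had the smallest mean ratio (0.56, against 0.67 for *Hsd11b2* and 1.30 for *Sgk1*). Large ratios are rare among the kept gene probes, so these counts are not read as a trait of the profiles.

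**Figure D4:**
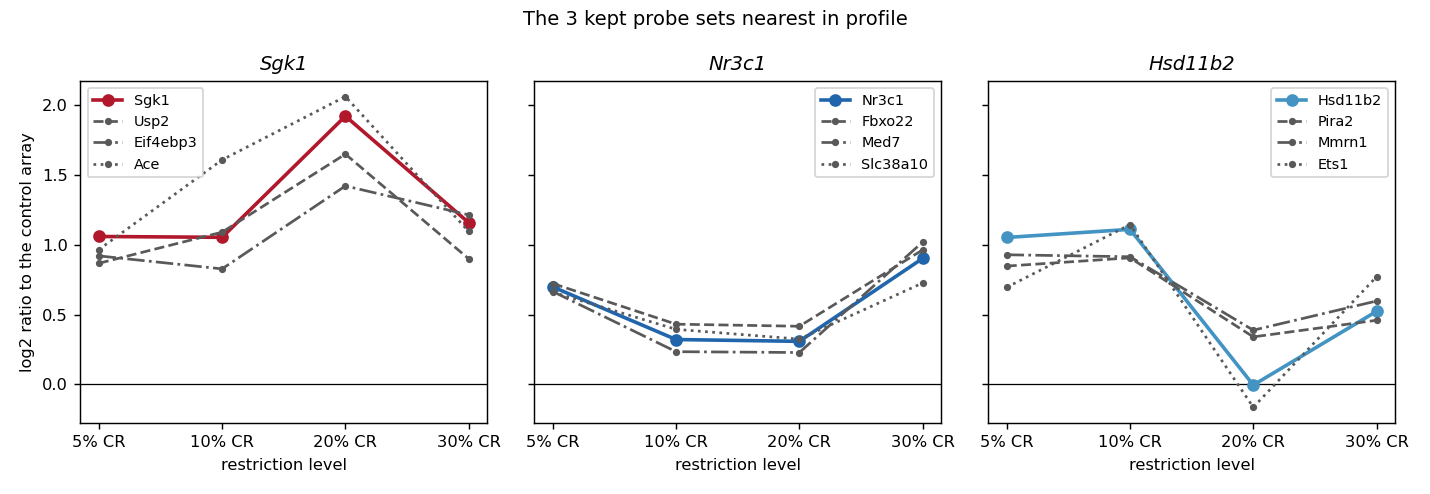
Log2 ratio to the control array at the evenly spaced restriction levels for *Sgk1*, *Nr3c1* and *Hsd11b2*, each with the 3 kept gene probes of other genes nearest in profile, 1 pool per point. *Usp2*, *Eif4ebp3* and *Ace* were chosen for nearness to *Sgk1*, so their peak at 20% CR is not a separate result.

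Markers of other cells varied over the same arrays. Of 12 lymphocyte markers on the array 4 were above the filter level (*Cd3d*, *Cd3g*, *Ptprc* and *Lck*), and the 12 summed to 1415 on the control array and to 1627, 1635, 1681 and 1597 with 5, 10, 20 and 30% CR. Of that sum *Cd3g* alone gave 1025.4 on the control array, and the median log2 ratios of the measured markers were 0.36, 0.61, 0.02 and 0.24 with 5, 10, 20 and 30% CR. All 10 smooth muscle markers were measured and summed to 12264, 9870, 13416, 11532 and 10011 in the same order. Only 1 of 10 markers of exocrine pancreas was measured, and the summed signal was highest on the control array, at 869, against 265 to 374 on the CR arrays. The measured marker, *Cela1*, was highest at 10% CR (245.8, against 214.5 on the control array). The high control sum therefore rests on markers under the filter level. That level applies to the mean over all arrays, so a marker bright on the control array alone can lie under it. The sums for adipose (2 of 5 markers measured) lay between 240 and 314, those for blood (1 of 3) between 336 and 596, those for proximal intestine (9 of 9) between 2465 and 2861, and those for distal intestine and colon (1 of 8) between 266 and 418. The part of these cells in the signals of the 7 genes was not tested.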

How the data were processed

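Total RNA of the small intestine was measured with 1 array per pool of 5 rats. The deposited values are MAS5 signal intensities on a linear scale, which the authors computed with GeneChip Operating Software (MAS5 per the submitters' processing notes) and scaled to an equal trimmed mean on every array. The target of the scaling was not given in the sources used here, and the detection and change calls are not analysed here. Mismatch signal is subtracted by MAS5, which makes ratios between weak signals unsteady, and scaling removes differences in total RNA between pools.

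Signals were floored at 0.1 and taken to log2, and the 57 array controls were left out. Of the other 15866 probe sets, called gene probes here, 12783 carry 1 symbol in the array annotation, 312 several and 2771 none. The brighter 7933 by mean log2 signal (at least its median) were kept. Ratios are CR over control. limma 3.58.1 (R 4.3.3, functions lmFit and eBayes with intensity trend, Benjamini-Hochberg adjustment, two-sided, threshold 0.05) compared the 4 CR pools with the control pool and fitted a trend over the restriction percent. Both fits have 3 residual degrees of freedom, so the p-values measure only the spread among pools, and the control, a single pool, was taken to vary as much as the others. The fit was also run on simulated data with independent noise of equal spread on all arrays. That run cannot check how much the control pool varies, and its outcome is not given here.

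The members and lists were chosen with earlier results of these data known, and some listed genes are named in the paper. Named were all probe sets of the 7 genes, the 4 genes per list whose mean ratio was largest in size (1 probe set per gene, the brightest), any list gene at least 0.5 log2 from the control in one direction at all levels, and the 3 nearest profiles. *Ndrg1*, *Scnn1a*, *Scnn1b*, *Scnn1g*, *Insr*, *Irs1* and the marker genes were named as well, after their values were seen. The alternatives tried were each pool's signals after quantile normalization or median centring, 13.0 added to every signal, a stricter filter or none, sizes of 0.3 and 0.75, averaging the probe sets of a gene, and each pool left out in turn. RefSeq promoter sequences (GRCr8) served for motifs only.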

Additional observations from a re-analysis of the deposited data

How the results depend on the processing

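The 7 genes were recomputed under each alternative. The limma comparison with the control gave 0 calls as reported and 0 to 3 with a pool left out, the 3 being higher in CR without the 30% CR pool and including 0 of the 7 genes, and the trend gave 0 calls under all alternatives run. The count of gene probes at least 0.5 log2 from the control in one direction at all levels was 1 (*Sgk1*). It was 1 to 2 with a CR pool left out (2 without the 20% CR pool, *Sgk1* and *Hsd11b2*) and 2 at a size of 0.3 (*Sgk1* and *Nr3c1*). The count at least 1 log2 from it at a level was 3, and 5 without the filter, which adds the weak gene probes of *Nr3c1* and *Pik3r1*. It was 2 with the added constant (*Hsd11b2* then reached 0.86 and 0.91 at 5 and 10% CR), with the stricter filter and without the 5% CR pool. The mean ratio of *Nr3c1* reversed to −0.401 when its 2 gene probes were averaged, against 0.558 on the brighter one. With a CR pool left out, *Sgk1* ranged between 1.09 and 1.38 and *Fkbp5* between −0.51 and −0.02, with −0.02 reached without the 5% CR pool. No paired analysis was possible because the labels give the pools no shared number and each rat had a single diet. With 1 array per level, the number of arrays limits the precision, and signals near the filter level are the least reliable.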
